A study of Ovis aries with 36 samples.

Results

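Amino acid transporters of 7 solute carrier families, SLC1, SLC3, SLC6, SLC7, SLC36, SLC38 and SLC43, were followed in cultured cells labelled as sheep ruminal epithelial cells and grown in media with volatile fatty acids (VFAs, the short acids that rumen microbes release from feed). The members were taken by symbol, as every gene named for one of these families, with 2 genes left out by the choice of members and not analysed here. This gave 56 of the 35223 genes in the count table. Of the 56 genes, 51 had enough reads to be tested. In 28 of them the mean over the 18 libraries of a medium reached 5 CPM (reads of the gene per M reads of the library, after scaling between libraries) in at least 1 medium, in 15 it lay from 1 to 5 CPM and in 8 it stayed under 1 CPM.

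Amino acids cross membranes mainly through carriers. Exchangers such as most of SLC7 swap one amino acid for another. Sodium-coupled carriers of SLC1, SLC6 and SLC38 and some carriers of SLC36, coupled to protons, build up the gradients that the exchangers use. Light chains of SLC7 reach the cell surface bound to a heavy chain of SLC3. In the rumen wall, amino acids and peptides from microbes and feed meet a layered epithelium that feeds its own protein synthesis and passes part of them to the blood, and several carriers are also lysosomal exporters or sensors that report amino acid supply to the growth kinase mTORC1. The roles given below are those known from human and mouse.

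Cultured cells labelled as ovine ruminal epithelial cells first spent 2 h without serum in the presence of 100 nM dexamethasone, a glucocorticoid that sets cellular clocks in step, and were then given a VFA medium of pH 7.2. The Grain medium was made to 115.78 mM VFAs in all, with 71.1 mM acetate, 20.1 mM propionate, 16.0 mM butyrate, 5.3 mM isovalerate, 1.7 mM valerate and 1.1 mM isobutyrate. The Hay medium was made to 89.79 mM, with 60.8 mM acetate, 14.6 mM propionate, 9.2 mM butyrate, 3.0 mM isovalerate, 1.2 mM valerate and 1.0 mM isobutyrate. RNA was taken every 4 h at 6 time points, T0 to T20, and each pair of medium and time had 3 libraries, 18 per medium and 36 in all. Every group had received dexamethasone, the 3 main acids were added as sodium salts, and VFA-free cultures were not analysed here, so that acid, sodium and osmotic load cannot be told apart. The labels place T0 at 24 h without making clear from which event the hours run, and whether replicate libraries stem from separate cultures is not stated. The p-values therefore measure the spread between these libraries, which may be technical.

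Total counts ran from 52.4 to 65.3 M in Grain libraries and from 55.1 to 68.1 M in Hay libraries. The difference between the media was wide, since 81.5% of the 22488 genes tested differed in the mean of the 6 time points. Every marker used to check the labelled cell type had reads in the table. The summed level of 3 basal keratinocyte markers was 154 to 477 CPM in Grain and 165 to 246 CPM in Hay, with 2 of 3 higher and 1 lower. For 4 simple epithelial markers it was 103 to 144 CPM in Grain and 171 to 201 CPM in Hay, with 1 higher and 3 lower. For 6 mesenchymal markers it was 74744 to 126362 CPM in Grain and 66657 to 90642 CPM in Hay, with 4 higher and 2 lower. Most of that sum was fibronectin, FN1, at 75016 ± 12417 CPM in Grain and 59785 ± 5021 CPM in Hay (SD, n = 18 each). The epithelial markers were thus present, but the mesenchymal sum lay far above both epithelial sums in every library. These sums span different genes and are not divided by transcript length. They put the epithelial label in doubt but do not settle the cell type. Smooth muscle markers summed to 159 to 466 CPM in Grain and 128 to 562 CPM in Hay, with 3 of 4 higher and 1 lower. Of 3 endothelial markers 1 was higher and 1 lower, and of 4 immune markers 1 was higher and 3 were lower. Endothelial markers summed to 3.23 to 6.48 CPM and immune markers to 2.58 to 3.68 CPM in Grain, against 2.63 to 4.46 CPM and 3.86 to 6.10 CPM in Hay. Mitochondrial mRNAs took 0.861% to 1.44% of the counts in Grain and 2.79% to 3.48% in Hay. The part of cell makeup and of RNA composition in the results was not tested, and in bulk RNA fewer cells of a type and less RNA per cell cannot be told apart.

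Grain medium was set against Hay medium first in the mean of the 6 time points, which asks which transporters differ whatever the hour. Of the 51 transporters tested, 21 were higher in Grain, 19 were lower and 11 did not pass the test (edgeR quasi-likelihood test, Benjamini-Hochberg adjusted over all genes, threshold 0.05, two-sided), where over all genes tested 37.7% were higher and 43.7% were lower. The median log2 difference, Grain minus Hay, was -0.020 over the 51 transporters and -0.066 over all genes tested. By level, the counts were these. Among the 28 transporters of at least 5 CPM, 17 were higher and 8 were lower in Grain with a median of 0.35, where 53.2% of all genes at that level were higher and 38.7% were lower with a median of 0.097. Among the 15 transporters from 1 to 5 CPM, 4 were higher and 8 were lower, where 28.8% and 54.4% of all genes at that level were. Among the 8 under 1 CPM, 3 were lower and 5 did not pass the test, where 13.4% of all tested genes at that level were higher and 46.4% lower. Genes in general were more often higher at high levels than at low ones, and the transporters followed the same order. Called and at least 2-fold higher in Grain were 3 transporters, the glycine carrier SLC6A9, the arginine carrier SLC7A1 and the vesicular carrier SLC6A17, where 5.7% of all genes were. Called and at least 2-fold lower were 5, namely SLC7A8, SLC7A14, SLC36A2, SLC1A7 and SLC6A14, where 16% of all genes were. Levels are given as CPM scaled with TMM factors and not divided by transcript length, so they are compared between media within a gene and not between genes.

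**Figure D1:**
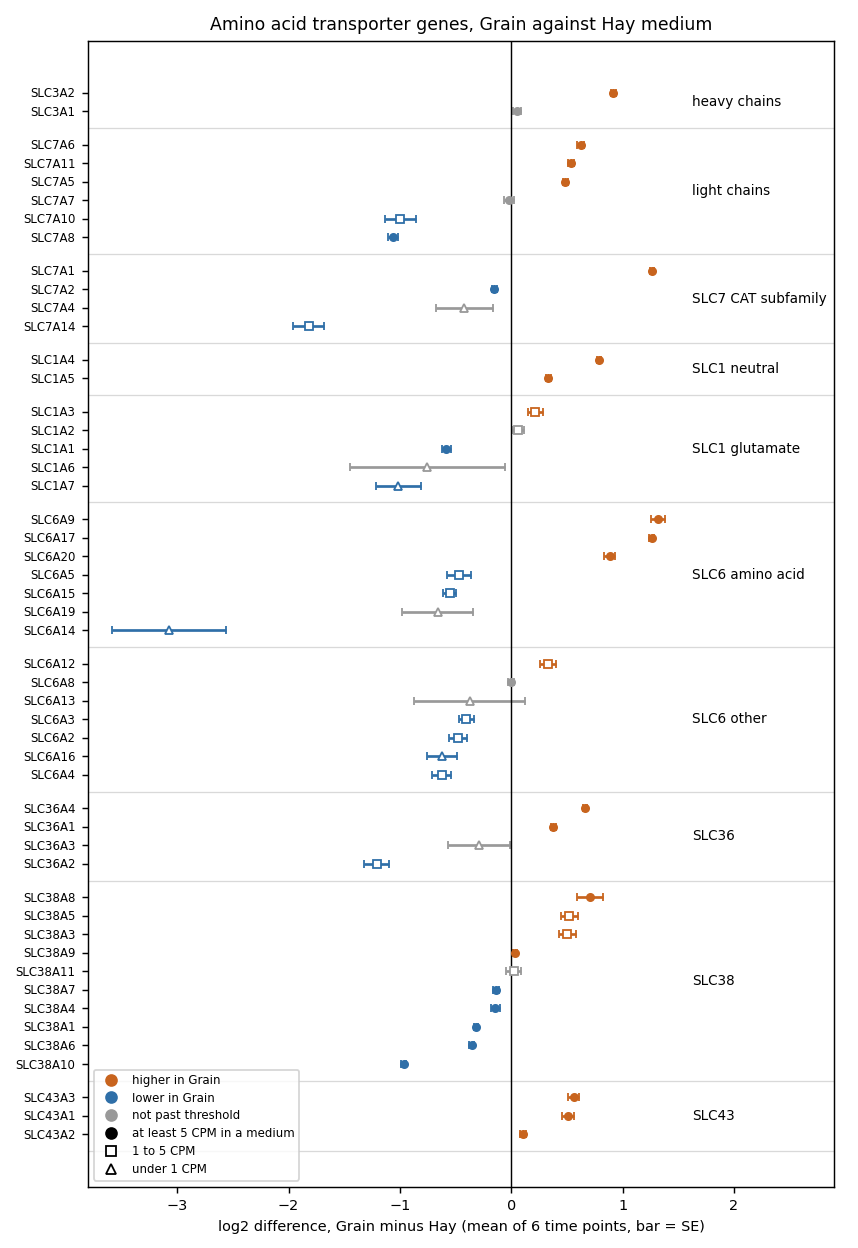
Log2 difference, Grain minus Hay, in the mean of 6 time points for the tested transporters (1 of the 51 is not shown), grouped by role on the vertical axis. Points are edgeR estimates and bars are standard errors, colour gives the call and marker shape the level; SLC6A9 lies highest at 1.32 and SLC6A14 lowest at -3.08.

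Heavy chains came first. SLC3A2, the heavy chain that carries most SLC7 light chains to the plasma membrane, had a lowest, median and highest level of 35.7, 43.3 and 55.1 CPM in Grain, against 20.9, 22.8 and 25.7 CPM in Hay. All 18 Grain libraries lay above all 18 Hay libraries. The log2 difference was 0.91 ± 0.022 (SE; edgeR adjusted p = 3.68e-39), a 1.89-fold higher level in Grain. SLC3A1, the heavy chain of the cystine and dibasic amino acid transporter of kidney and gut, stood at 9.78, 12.3 and 16.3 CPM in Grain, against 8.52, 13.0 and 15.2 CPM in Hay. The libraries of the media overlapped over most of their range, and the difference of 0.049 ± 0.034 did not pass the test (edgeR adjusted p = 0.181). SLC3A1 overlaps PREPL, which averaged 84.2 CPM in Grain and 186 CPM in Hay, and without strand the reads of overlapping genes cannot be told apart.

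Of 6 tested light chains of SLC7, 3 were higher and 2 were lower in Grain. SLC7A5, the exchanger that brings in leucine and other large neutral amino acids, had 19.7, 24.5 and 33.5 CPM in Grain, against 15.1, 17.5 and 22.6 CPM in Hay as lowest, median and highest level. The ranges overlapped across the whole course but not at any single time point, and the difference was 0.49 ± 0.026 (edgeR adjusted p = 7.07e-24). SLC7A6, which exchanges arginine and lysine for glutamine with sodium, had 48.5, 61.2 and 70.6 CPM in Grain, against 33.7, 40.0 and 42.5 CPM in Hay. All Grain libraries lay above all Hay libraries, and the difference was 0.62 ± 0.028 (edgeR adjusted p = 5.09e-20). Its overlapping partner SLC7A6OS moved the same way, with 35.3 CPM in Grain and 19.7 CPM in Hay. SLC7A11, the light chain that exports glutamate and imports cystine for glutathione synthesis, had 10.8, 20.8 and 28.3 CPM in Grain, against 12.8, 13.5 and 16.0 CPM in Hay. The Grain libraries spread widely and the lowest of them lay below every Hay library, while the mean difference was 0.53 ± 0.028 (edgeR adjusted p = 3.67e-24).

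SLC7A8, another carrier of large neutral amino acids that is typical of basolateral membranes, went the other way, with 2.77, 3.23 and 3.80 CPM in Grain, against 5.68, 6.84 and 7.70 CPM in Hay. All 18 Grain libraries lay below all 18 Hay libraries, and the difference was -1.06 ± 0.047 (edgeR adjusted p = 1.65e-27). SLC7A7, the relative of SLC7A6 on the basolateral side of gut and kidney cells, had 6.35, 8.22 and 9.39 CPM in Grain, against 6.72, 8.11 and 9.75 CPM in Hay and overlapping groups. Its difference of -0.020 ± 0.044 did not pass the test (edgeR adjusted p = 0.675), and it overlaps OXA1L, which averaged 199 CPM in Grain and 106 CPM in Hay. The alanine and serine exchanger SLC7A10 averaged 0.579 ± 0.195 CPM in Grain and 1.13 ± 0.298 CPM in Hay (SD, n = 18 each) and was lower in Grain by a log2 difference of -0.996 ± 0.14 (edgeR adjusted p = 4.84e-09). The groups overlapped, and the overlapping LRP3 averaged 1.41 CPM in Grain and 0.884 CPM in Hay. The light chain partner of SLC3A1, SLC7A9, had at most 5 counts in a library and was not tested. The heavy chain SLC3A2 and the light chains SLC7A5, SLC7A6 and SLC7A11 were thus higher in Grain, and the light chains SLC7A8 and SLC7A10 were lower.

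Cationic amino acid carriers of SLC7 do not need a heavy chain. SLC7A1, the widely expressed uptake route for arginine and lysine, had 59.8, 69.5 and 79.2 CPM in Grain, against 26.1, 28.2 and 35.2 CPM in Hay. The groups lay far apart, with the lowest Grain library above the highest Hay library, and the difference was 1.26 ± 0.019 (edgeR adjusted p = 3.8e-49), a 2.40-fold higher level in Grain. SLC7A2, the inducible arginine carrier of liver, muscle and immune cells, had 19.4, 22.3 and 26.0 CPM in Grain, against 22.0, 24.4 and 27.8 CPM in Hay. The groups overlapped widely, and the difference of -0.15 ± 0.021 passed the test (edgeR adjusted p = 4.79e-09). SLC7A14, a sequence relative of these carriers, averaged 0.449 ± 0.194 CPM in Grain and 1.55 ± 0.308 CPM in Hay (SD, n = 18 each), with all Grain libraries below all Hay libraries, and its difference was -1.82 ± 0.14 (edgeR adjusted p = 1.57e-17). SLC7A4 stayed under 1 CPM and did not pass the test, and SLC7A3 had at most 14 counts and was not tested.

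Both neutral exchangers of SLC1 were higher in Grain. SLC1A4, which carries alanine, serine, cysteine and threonine, had 54.8, 63.6 and 69.9 CPM in Grain, against 32.4, 35.7 and 39.7 CPM in Hay. No Grain library fell into the Hay range, and the difference was 0.79 ± 0.018 (edgeR adjusted p = 7.03e-41). SLC1A5, the main exchanger that brings glutamine into growing cells, had 25.4, 30.9 and 35.9 CPM in Grain, against 19.2, 24.5 and 27.2 CPM in Hay. The upper Hay libraries reached the lower Grain ones, and the difference was 0.33 ± 0.024 (edgeR adjusted p = 1.36e-18).

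The glutamate and aspartate carriers of SLC1 did not share that direction. SLC1A1, the glutamate carrier of epithelia and neurons that can also take up cysteine, had 7.35, 9.00 and 11.4 CPM in Grain, against 12.1, 13.9 and 17.2 CPM in Hay. All 18 Grain libraries lay below all 18 Hay libraries, and the difference was -0.58 ± 0.038 (edgeR adjusted p = 4.6e-20). SLC1A3, a glutamate carrier best known from glia, averaged 3.08 ± 0.470 CPM in Grain and 2.66 ± 0.437 CPM in Hay and was higher by 0.22 ± 0.067 (edgeR adjusted p = 0.0029), whereas its glial relative SLC1A2, at 3.94 ± 0.556 CPM in Grain and 3.78 ± 0.355 CPM in Hay (SD, n = 18 each), did not pass the test with 0.059 ± 0.055 (edgeR adjusted p = 0.324). Under 1 CPM, the retinal SLC1A7 had 7 to 23 counts a library in Grain and 11 to 50 in Hay and was lower by a log2 difference of -1.01 ± 0.20 (edgeR adjusted p = 9.71e-06), and SLC1A6 did not pass the test.

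In SLC6, the carriers of amino acids split. SLC6A9, the sodium- and chloride-coupled glycine carrier, had 4.50, 6.22 and 10.7 CPM in Grain, against 1.80, 2.73 and 3.80 CPM in Hay. The groups did not overlap, and the log2 difference of 1.32 ± 0.061 was the highest of the 51 transporters (edgeR adjusted p = 1.17e-26), 2.50-fold higher in Grain. The gene CCDC24, which overlaps SLC6A9, moved the other way, by -0.34. SLC6A17, a carrier of neutral amino acids known from synaptic vesicles, had 44.3, 47.6 and 56.4 CPM in Grain, against 16.4, 19.5 and 27.0 CPM in Hay. All Grain libraries lay well above all Hay libraries, and the difference was 1.26 ± 0.021 (edgeR adjusted p = 1.29e-46). SLC6A20, the carrier of proline and other imino acids, had 6.75, 8.02 and 13.1 CPM in Grain, against 2.96, 4.56 and 6.79 CPM in Hay. Only the edges of the groups touched, with a difference of 0.88 ± 0.051 (edgeR adjusted p = 2.42e-22). SLC6A20 overlaps SACM1L, which averaged 135 CPM in Grain and 129 CPM in Hay and differed by 0.067.

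Below 5 CPM the SLC6 amino acid carriers were lower in Grain or did not pass the test. SLC6A15, a carrier of branched-chain amino acids and proline in brain, averaged 2.65 ± 0.582 CPM in Grain and 3.88 ± 0.815 CPM in Hay and differed by -0.55 ± 0.059 (edgeR adjusted p = 2.69e-12). SLC6A5, the other glycine carrier of the family, averaged 1.04 ± 0.208 CPM in Grain and 1.46 ± 0.354 CPM in Hay (SD, n = 18 each) and differed by -0.47 ± 0.11 (edgeR adjusted p = 7.44e-05). SLC6A14, a carrier that takes both neutral and cationic amino acids, had 0 to 16 counts a library in Grain and 0 to 36 in Hay, with 10 of 18 Grain libraries and 1 of 18 Hay libraries at 0. Its fitted difference of -3.08 ± 0.51 (edgeR adjusted p = 5.87e-07) rests on these few reads, and it overlaps another gene, CT83. The gut and kidney carrier SLC6A19 did not pass the test, and SLC6A18 and SLC6A7, with at most 2 and 11 counts, were not tested. A library with a count of 0 allows up to 3 counts, or 0.0411 to 0.0588 CPM, for counting error only.

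Carriers of SLC6 that move other substrates were mostly scarce. SLC6A8, the creatine carrier, was the 1 above 5 CPM, with 21.5, 25.2 and 29.9 CPM in Grain, against 22.7, 25.4 and 28.2 CPM in Hay. The groups overlapped almost fully and the difference of -0.0031 ± 0.023 did not pass the test (edgeR adjusted p = 0.911). SLC6A12, which takes up betaine and GABA, averaged 2.65 ± 0.621 CPM in Grain and 2.08 ± 0.237 CPM in Hay and was higher by 0.33 ± 0.070 (edgeR adjusted p = 2.77e-05). The carriers of norepinephrine, dopamine and serotonin were all lower in Grain. SLC6A2 averaged 1.40 ± 0.216 CPM in Grain and 1.96 ± 0.359 CPM in Hay and differed by -0.48 ± 0.081 (edgeR adjusted p = 3.96e-07). SLC6A3 averaged 2.42 ± 0.663 CPM in Grain and 3.12 ± 0.411 CPM in Hay and differed by -0.40 ± 0.064 (edgeR adjusted p = 1.41e-07). SLC6A4 averaged 1.33 ± 0.353 CPM in Grain and 2.02 ± 0.306 CPM in Hay (SD, n = 18 each) and differed by -0.63 ± 0.088 (edgeR adjusted p = 6.69e-09), and it overlaps NSRP1, which averaged 139.6 CPM in Grain and 127 CPM in Hay. Under 1 CPM, SLC6A16 had 17 to 47 counts a library in Grain and 35 to 77 in Hay. It was lower by a log2 difference of -0.62 ± 0.14 (edgeR adjusted p = 4.56e-05). SLC6A13 did not pass the test, and SLC6A11 had at most 17 counts and was not tested.

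SLC36 holds proton-coupled carriers, though not every member need be one, that export small amino acids from lysosomes or take them up at acid surfaces. SLC36A1, the lysosomal carrier of alanine, glycine and proline that also acts in mTORC1 activation, had 29.1, 33.6 and 37.0 CPM in Grain, against 22.2, 26.1 and 29.6 CPM in Hay. The groups met at their edges, and the difference was 0.38 ± 0.021 (edgeR adjusted p = 3.66e-23), while the overlapping FAT2 averaged 1.61 CPM in Grain and 3.41 CPM in Hay and went the other way. SLC36A4, a relative with high affinity for proline and tryptophan, had 115, 127 and 137 CPM in Grain, against 74.8, 80.5 and 84.7 CPM in Hay. All 18 Grain libraries exceeded all 18 Hay libraries, and the difference was 0.66 ± 0.016 (edgeR adjusted p = 5.51e-40). SLC36A2, a glycine and proline carrier of kidney and muscle, averaged 0.817 ± 0.356 CPM in Grain and 1.84 ± 0.581 CPM in Hay (SD, n = 18 each) and was lower by a log2 difference of -1.21 ± 0.11 (edgeR adjusted p = 3.17e-14), with overlapping groups. SLC36A3 stayed under 1 CPM and did not pass the test.

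SLC38 holds the sodium-coupled carriers of glutamine and small neutral amino acids, and 4 of its 10 members were higher and 5 lower in Grain. Among surface carriers, SLC38A1, which concentrates glutamine and alanine in cells, had 38.7, 42.4 and 45.8 CPM in Grain, against 49.9, 53.2 and 57.4 CPM in Hay. No Grain library reached the Hay range, and the difference was -0.32 ± 0.018 (edgeR adjusted p = 6.9e-23). SLC38A4, a system A carrier best known from liver and placenta, had 7.06, 8.56 and 10.5 CPM in Grain, against 7.34, 9.35 and 11.2 CPM in Hay. The groups overlapped, and the difference was -0.15 ± 0.041 (edgeR adjusted p = 0.00115). The uncharacterised gene LOC106990997, which overlaps SLC38A4, averaged 3.12 CPM in Grain and 6.78 CPM in Hay. SLC38A3 and SLC38A5, the carriers that also move histidine and asparagine and can run in reverse, were both higher. SLC38A3 averaged 2.75 ± 0.325 CPM in Grain and 1.94 ± 0.341 CPM in Hay and differed by 0.50 ± 0.074 (edgeR adjusted p = 2.37e-08). SLC38A5 averaged 3.15 ± 0.672 CPM in Grain and 2.22 ± 0.570 CPM in Hay (SD, n = 18 each) and differed by 0.52 ± 0.076 (edgeR adjusted p = 2.07e-08).

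SLC38A10, a member of broad tissue distribution, had 107, 118 and 135 CPM in Grain, against 211, 231 and 251 CPM in Hay. All 18 Grain libraries lay below all 18 Hay libraries, and the difference of -0.97 ± 0.023 (edgeR adjusted p = 3.19e-25) was a 1.96-fold higher level in Hay. SLC38A6 had 24.2, 32.6 and 41.5 CPM in Grain, against 33.5, 41.7 and 47.5 CPM in Hay, with overlapping groups and a difference of -0.36 ± 0.022 (edgeR adjusted p = 2.38e-21). The lysosomal members differed by little. SLC38A7, which exports glutamine and asparagine from lysosomes, had 14.3, 15.1 and 17.5 CPM in Grain, against 15.3, 16.7 and 18.5 CPM in Hay, with overlapping groups, and differed by -0.14 ± 0.030 (edgeR adjusted p = 5.47e-05). SLC38A9, the lysosomal arginine sensor that signals to mTORC1, had 68.6, 76.0 and 81.8 CPM in Grain, against 67.9, 74.5 and 77.3 CPM in Hay. Its groups overlapped almost fully, and the difference of 0.033 ± 0.015 just passed the test (edgeR adjusted p = 0.0414), but not with DESeq2, with its size factors, without the low-count filter, without the T12 libraries or in 22 of 36 fits that left out 1 library. SLC38A8, a glutamine carrier known from retina and brain, had 4.64, 7.27 and 8.68 CPM in Grain, against 1.71, 4.98 and 6.93 CPM in Hay, with overlapping groups, and differed by 0.71 ± 0.12 (edgeR adjusted p = 4.58e-06). It overlaps NECAB2, which averaged 8.22 CPM in Grain and 5.05 CPM in Hay with a difference of 0.71. SLC38A11 averaged 2.47 ± 0.399 CPM in Grain and 2.43 ± 0.276 CPM in Hay (SD, n = 18 each) and did not pass the test with 0.022 ± 0.069 (edgeR adjusted p = 0.774).

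All 3 members of SLC43 were higher in Grain. SLC43A1, a facilitator of leucine and other large neutral amino acids, had 4.70, 5.39 and 6.28 CPM in Grain, against 2.15, 3.95 and 4.92 CPM in Hay. The groups overlapped, and the difference was 0.51 ± 0.053 (edgeR adjusted p = 1.5e-12). SLC43A2, a close relative with the same substrates, had 15.9, 17.4 and 21.6 CPM in Grain, against 14.3, 16.4 and 17.5 CPM in Hay, with wide overlap and a difference of 0.11 ± 0.027 (edgeR adjusted p = 0.000342). The SLC43A2 call rested on T12, since without the T12 libraries the difference was 0.044 and did not pass the test (edgeR adjusted p = 0.15). SLC43A3, a carrier of purine bases in spite of its family, had 7.21, 8.65 and 10.6 CPM in Grain, against 4.55, 5.81 and 6.89 CPM in Hay. All Grain libraries lay above all Hay libraries, and the difference was 0.56 ± 0.049 (edgeR adjusted p = 2.08e-15).

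Across these roles, all 18 Grain libraries lay above all 18 Hay libraries for 8 transporters, where 15.4% of all genes tested did, and below them for 5, where 11.9% did. At the level of at least 5 CPM, the 8 compare with 26.5% of genes and the 4 below compare with 16.6%. The 8 were SLC3A2, SLC7A6, SLC7A1, SLC1A4, SLC6A9, SLC6A17, SLC36A4 and SLC43A3. The 5 were SLC7A8, SLC7A14, SLC1A1, SLC38A1 and SLC38A10. SLC38A1 was apart at a log2 difference of -0.32, while SLC7A10 overlapped at -0.996.

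**Figure D2:**
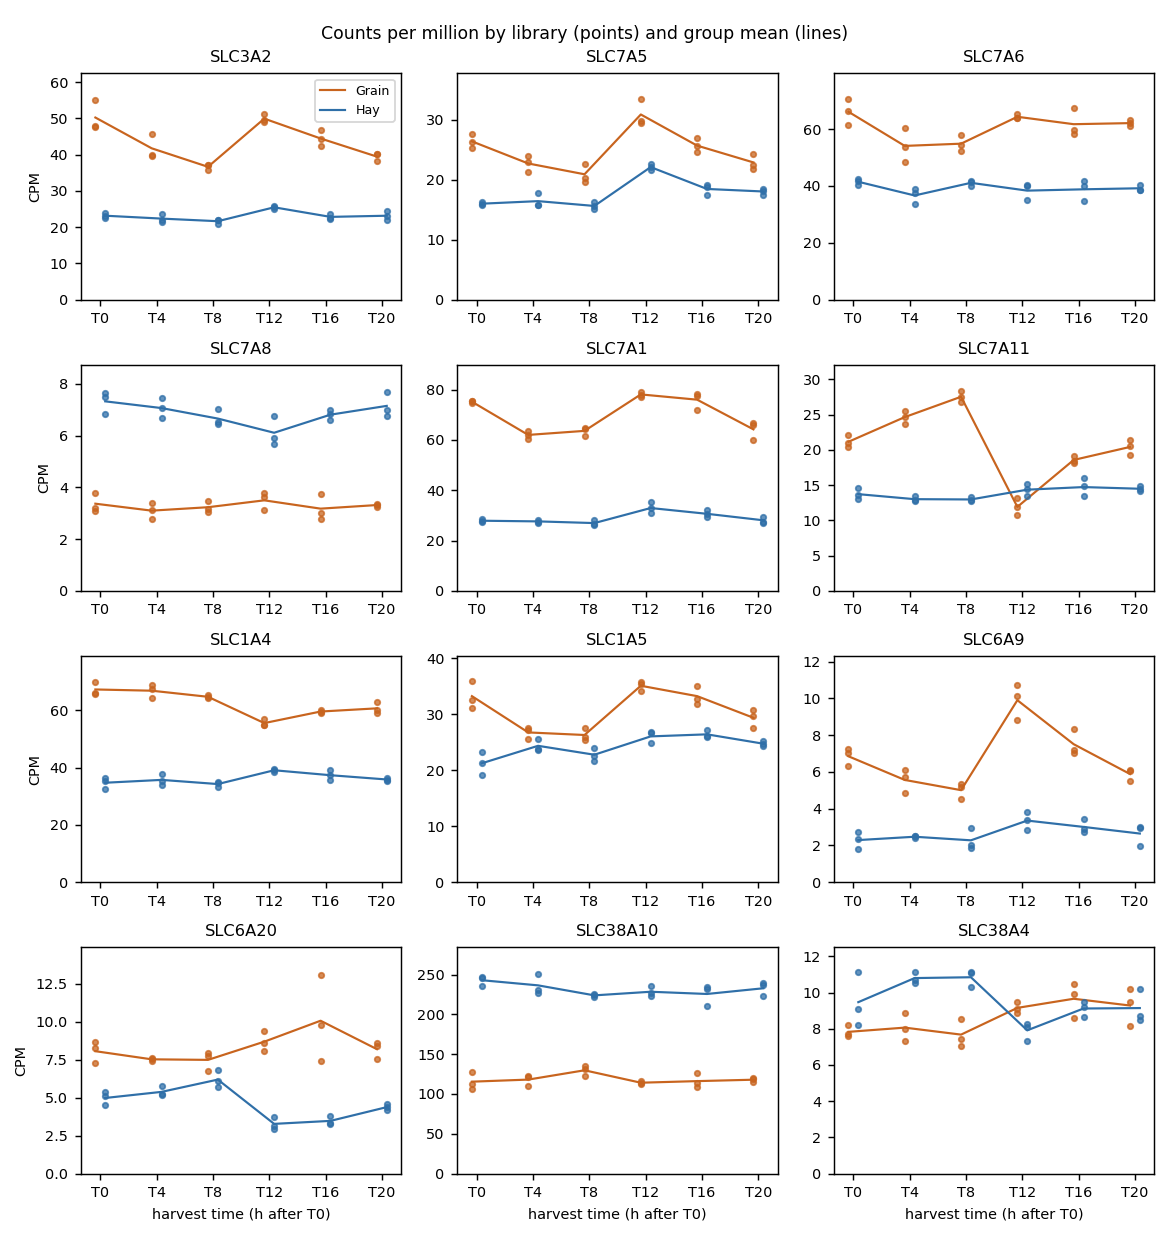
CPM of 12 transporters by harvest time, with each point 1 library and each line the mean of 3 libraries, Grain in orange and Hay in blue, all vertical axes from 0. SLC3A2, SLC7A6, SLC7A1, SLC1A4 and SLC6A9 stayed above Hay at every time, SLC7A8 and SLC38A10 stayed below, SLC7A11 fell below Hay at T12, and SLC38A4 crossed between T8 and T12.

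The difference was next taken at each time point, to ask whether it held through the day. At T0, 16 of the 51 transporters were higher and 14 lower in Grain, where 31.5% and 31.1% of all genes were. At T4 the numbers were 17 higher and 13 lower, where 29.8% and 27.8% of all genes were. T8 gave 17 higher and 14 lower, with 29.4% and 27.1% over all genes. T12 gave 16 higher and 15 lower, with 30.6% and 33.4% over all genes. At T16, 15 were higher and 15 lower, with 30.1% and 32.2% over all genes, and at T20, 15 were higher and 14 lower, with 29.6% and 29.1%. The counts stayed between 15 and 17 higher and between 13 and 15 lower. Called higher at all 6 time points were 12 transporters, where 21.1% of all genes and 35.6% of genes of at least 5 CPM were. They were SLC3A2, SLC7A5, SLC7A6, SLC7A1, SLC1A4, SLC1A5, SLC6A9, SLC6A17, SLC6A20, SLC36A1, SLC36A4 and SLC43A3. Called lower at all 6 were 8, where 18% of all genes and 23.5% of genes of at least 5 CPM were, namely SLC7A8, SLC7A14, SLC1A1, SLC6A15, SLC36A2, SLC38A1, SLC38A6 and SLC38A10.

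**Figure D3:**
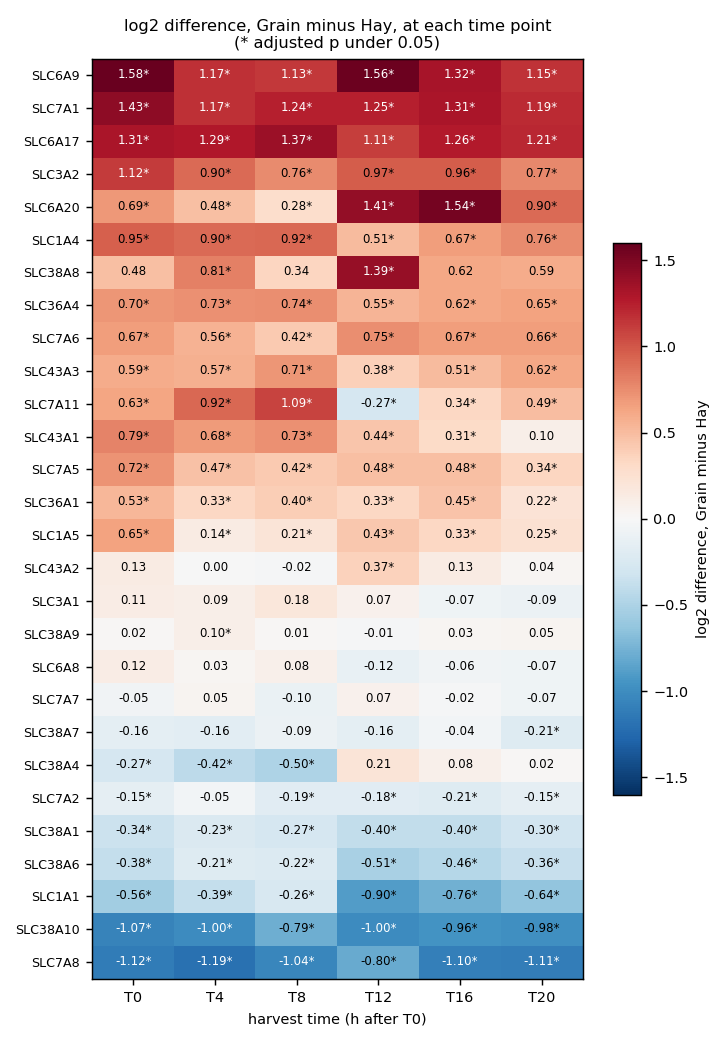
Log2 difference, Grain minus Hay, at each of 6 harvest times for the 28 transporters of at least 5 CPM, ordered by the mean difference, with asterisks for adjusted p under 0.05. Rows at the top are positive at all times and rows at the bottom negative at all times, while SLC7A11 turns to -0.27 at T12 and SLC38A4 is negative at T0 to T8 only.

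Whether the difference depended on time was tested as an interaction of medium and time, and 16 of 51 transporters passed, where 33.2% of all genes did. Of the 28 at 5 CPM or more 14 passed, where 52.5% of genes at that level did. SLC7A11 gave the smallest p (edgeR adjusted p = 4.42e-16). At T8 its libraries held 26.9, 28.3 and 27.5 CPM in Grain, against 12.9, 13.3 and 12.8 CPM in Hay, a log2 difference of 1.09 ± 0.068. At T12 they held 10.8, 13.1 and 11.9 CPM in Grain, against 14.5, 15.2 and 13.4 CPM in Hay, a difference of -0.27 ± 0.070 in the other direction (edgeR adjusted p = 0.00072). The change lay in Grain, where the mean was 27.5 CPM at T8, 11.9 CPM at T12 and 18.6 CPM at T16, while the Hay means stayed between 13.0 and 14.7 CPM. Without the T12 libraries the interaction of SLC7A11 still passed the test (edgeR adjusted p = 9.98e-09).

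SLC6A20 came next (edgeR adjusted p = 2.89e-08), with group means from 7.49 to 10.1 CPM in Grain and from 3.27 to 6.19 CPM in Hay. At T8 the libraries held 6.75, 7.96 and 7.77 CPM in Grain, against 5.69, 6.10 and 6.79 CPM in Hay, a difference of 0.28 ± 0.12. At T12 they held 8.09, 9.39 and 8.60 CPM in Grain, against 2.96, 3.70 and 3.15 CPM in Hay, and the difference widened to 1.41 ± 0.13. At T16 the Grain libraries spread most, with 7.39, 13.1 and 9.77 CPM in Grain, against 3.79, 3.35 and 3.27 CPM in Hay, and the difference was 1.54 ± 0.13. In SLC38A4 (edgeR adjusted p = 6.09e-05) the order of the groups differed between times. The T8 libraries held 7.41, 8.55 and 7.06 CPM in Grain, against 11.1, 10.3 and 11.2 CPM in Hay, a difference of -0.50 ± 0.10 with no overlap. The T12 libraries held 8.88, 9.46 and 9.11 CPM in Grain, against 8.12, 7.34 and 8.27 CPM in Hay, again with no overlap, and the difference of 0.21 ± 0.10 did not pass the test (edgeR adjusted p = 0.0647).

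The neutral exchangers narrowed at different times. SLC1A4 (edgeR adjusted p = 3.39e-08) differed by 0.95 at T0 and by 0.51 at T12, when its Grain libraries were at their lowest with 54.8, 57.0 and 54.8 CPM, against 39.1, 39.7 and 38.4 CPM in Hay. SLC1A5 (edgeR adjusted p = 1.05e-05) differed by 0.65 at T0, with 35.9, 32.6 and 31.2 CPM in Grain, against 23.2, 19.2 and 21.2 CPM in Hay. At T4 it differed by only 0.14, with 25.5, 27.1 and 27.6 CPM in Grain, against 25.6, 23.8 and 23.6 CPM in Hay, where the groups overlapped slightly. The glutamate carrier SLC1A1 (edgeR adjusted p = 0.000674) was lower in Grain at all times, differing by -0.26 at T8 and by -0.90 at T12.

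SLC3A2, SLC7A5 and SLC7A1 were higher in Grain at every time and changed in size. SLC3A2 (edgeR adjusted p = 0.000936) differed by 1.12 at T0, with 55.1, 47.7 and 47.9 CPM in Grain, against 23.0, 22.5 and 23.9 CPM in Hay, and by 0.76 at T8, with 37.1, 35.7 and 37.1 CPM in Grain, against 22.0, 20.9 and 22.0 CPM in Hay. SLC7A5 (edgeR adjusted p = 0.0143) differed by 0.72 at T0 and 0.34 at T20, and without the third Grain T0 library its interaction did not pass the test (edgeR adjusted p = 0.0665). SLC7A5 had its highest group mean at T12 in both media, 30.9 CPM in Grain and 22.1 CPM in Hay. SLC7A1 (edgeR adjusted p = 0.00946) ranged only between 1.17 at T4 and 1.43 at T0.

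The other members with a time-dependent difference changed mainly in size. SLC38A6 (edgeR adjusted p = 0.00229) was lower throughout, differing by -0.21 at T4 and by -0.51 at T12. SLC36A1 (edgeR adjusted p = 0.00844) was higher by 0.22 at T20 and 0.53 at T0. SLC43A1 (edgeR adjusted p = 0.00909) was higher by 0.79 at T0 and did not pass the test at T20, with 0.10. SLC36A4 (edgeR adjusted p = 0.016) ranged between 0.55 at T12 and 0.74 at T8, and its interaction did not pass the test under 5 of 40 alternatives. These were DESeq2 size factors (edgeR adjusted p = 0.106), no low-count filter (edgeR adjusted p = 0.0727), and fits without the T12 libraries (edgeR adjusted p = 0.335) or without the first or the third Grain T12 library (edgeR adjusted p up to 0.126). SLC43A2 (edgeR adjusted p = 0.00669) passed the test at T12 alone, by 0.37, with 21.2, 21.6 and 18.8 CPM in Grain, against 14.3, 16.9 and 16.4 CPM in Hay, and its interaction did not pass the test without the T12 libraries (edgeR adjusted p = 0.527) or without the first Hay T12 library (edgeR adjusted p = 0.0675). Among the scarce carriers, SLC6A12 was higher at T4 and T8, by 0.72 and 0.74, and differed by -0.024 at T20, while SLC6A3 differed by 0.052 at T8 and by -0.88 at T16, the 1 of these values that passed the test.

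The series asks about circadian expression, so a cosine of 24 h was fitted in each medium. A 24 h component was found for 20 of 51 transporters in Grain, where 31.9% of all genes had one, and for 9 in Hay, where 20.6% had one. Of those at 5 CPM or more, 15 of 28 had one in Grain and 8 of 28 in Hay, where 45.5% and 33.7% of genes at that level did. The 6 time points cover a single cycle, so a component says that a 24 h cosine took up part of the variation between times, not that the course repeated or had a single high. SLC7A1 in Grain, for example, averaged 75.2 CPM at T0 and 78.1 CPM at T12, and 62.0 CPM at T4 and 64.2 CPM at T20. The peaks below are those of the fitted cosine. In Grain, 9 of the 15 peaked between 1.67 and 5.23 h after T0 and 6 peaked between 14.6 and 16.6 h. In Hay, 3 of the 8 peaked between 3.88 and 4.40 h and 5 between 14.3 and 17.6 h.

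Early peaks in Grain belonged to carriers of several roles. SLC7A11 had the largest amplitude of them, 0.34 ± 0.072 on the log2 scale with a peak at 3.14 ± 0.801 h (edgeR adjusted p = 0.00191). SLC38A6 followed with 0.25 ± 0.043 at 3.67 ± 0.654 h (edgeR adjusted p = 0.000163). SLC7A2 had an amplitude of 0.17 ± 0.024 at 3.84 ± 0.558 h in Grain (edgeR adjusted p = 2.11e-05) and of 0.12 ± 0.024 at 4.40 ± 0.789 h in Hay (edgeR adjusted p = 0.00149), the same hours within their errors, and the Hay call was lost with a linear trend in the model (edgeR adjusted p = 0.245). SLC1A4, with 0.13 ± 0.022 at 2.39 ± 0.660 h (edgeR adjusted p = 0.00016), and SLC38A9, with 0.079 ± 0.019 at 2.77 ± 0.915 h (edgeR adjusted p = 0.00487), kept their call under every alternative tried, as did SLC7A11, SLC38A6 and SLC7A2 in Grain.

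Other early peaks in Grain, with calls that depended on the processing, were those of SLC6A8, 0.16 ± 0.030 at 4.24 ± 0.744 h (edgeR adjusted p = 0.000603), SLC1A1, 0.14 ± 0.044 at 5.23 ± 1.18 h (edgeR adjusted p = 0.0319), SLC38A1, 0.071 ± 0.021 at 1.67 ± 1.11 h (edgeR adjusted p = 0.0233), and SLC36A4, 0.063 ± 0.018 at 2.04 ± 1.11 h (edgeR adjusted p = 0.0225). Each of these 4 lost its call under at least 1 alternative. SLC6A8 lost it with a linear trend in the model (edgeR adjusted p = 0.065), and the other 3 reached adjusted p-values of up to 0.0902, 0.126 and 0.205 in the order named.

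SLC3A1 and SLC6A17 had late peaks in both media. SLC3A1 had an amplitude of 0.20 ± 0.055 at 15.6 ± 1.05 h in Grain (edgeR adjusted p = 0.0153) and of 0.31 ± 0.055 at 16.6 ± 0.687 h in Hay (edgeR adjusted p = 0.000306). SLC6A17 had 0.12 ± 0.036 at 14.8 ± 1.11 h in Grain (edgeR adjusted p = 0.022) and 0.19 ± 0.037 at 14.9 ± 0.735 h in Hay (edgeR adjusted p = 0.000564). These 4 calls held under every alternative tried. In Grain, late peaks also came from SLC6A9, with 0.29 ± 0.086 at 14.6 ± 1.12 h (edgeR adjusted p = 0.0203), SLC1A5, with 0.15 ± 0.040 at 16.6 ± 1.05 h (edgeR adjusted p = 0.017), and SLC7A1, with 0.11 ± 0.035 at 15.7 ± 1.22 h (edgeR adjusted p = 0.0418). SLC7A1 lost its call under 17 of 41 alternatives, SLC6A9 under 2 and SLC1A5 under 1, the fit without the first Grain T4 library (edgeR adjusted p = 0.0603). In Hay, late peaks came from SLC7A5, with 0.19 ± 0.052 at 14.3 ± 1.06 h (edgeR adjusted p = 0.0224), SLC43A1, with 0.22 ± 0.064 at 17.6 ± 1.10 h (edgeR adjusted p = 0.0303), and SLC36A1, with 0.10 ± 0.030 at 15.7 ± 1.16 h (edgeR adjusted p = 0.0429), which lost their calls under 4, 7 and 19 of 41 alternatives.

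A different 24 h component in the media was tested directly, and 7 of 51 transporters passed, where 11.3% of all genes did. Of the 28 at 5 CPM or more 5 passed, where 18.1% did. SLC38A4 had a component in both media with opposite hours, peaking at 16.3 ± 1.08 h in Grain and at 4.03 ± 1.10 h in Hay, with amplitudes of 0.17 ± 0.048 and 0.16 ± 0.047 and a difference between the media of edgeR adjusted p = 0.00267. SLC6A20 had an amplitude of 0.18 ± 0.064 in Grain, which did not pass the test, and of 0.40 ± 0.067 at 3.88 ± 0.641 h in Hay (edgeR adjusted p = 0.000134), and the media differed (edgeR adjusted p = 0.000215). SLC1A4 (edgeR adjusted p = 0.000213), SLC7A11 (edgeR adjusted p = 0.0135) and SLC1A1 (edgeR adjusted p = 0.0187) had the component in Grain, with Hay amplitudes of 0.068 ± 0.022, 0.10 ± 0.073 and 0.11 ± 0.043 that did not pass the test. Their fitted peaks lay at 2.39, 3.14 and 5.23 h in Grain, against 14.2 ± 1.26, 17.0 ± 2.77 and 14.8 ± 1.43 h in Hay. Some difference between the Hay times was found for SLC1A4 (edgeR adjusted p = 0.00293) and SLC1A1 (edgeR adjusted p = 0.0471), but not for SLC7A11 (edgeR adjusted p = 0.0775). All 5 kept the call of a different 24 h component under every alternative tried. With a linear trend in the model, however, SLC38A4 had no 24 h component past the test in Grain (edgeR adjusted p = 0.437) or Hay (edgeR adjusted p = 0.0609).

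The cosine did not pick up some courses with more than 1 high. Any difference between the 6 time points was found for 29 transporters in Grain, where 51.9% of all genes had one, and for 21 in Hay, where 36% had one. At 5 CPM or more these were 21 of 28 in Grain and 18 of 28 in Hay, where 73% and 57.7% of genes at that level had one. SLC3A2 in Grain stood high at T0, with 55.1, 47.7 and 47.9 CPM, and again at T12, with 49.4, 49.1 and 51.3 CPM, and low at T8, with 37.1, 35.7 and 37.1 CPM. Its times differed (edgeR adjusted p = 3.8e-11) while the 24 h component did not pass the test (edgeR adjusted p = 0.644). SLC7A5 in Grain had 25.3, 26.2 and 27.7 CPM at T0, 22.7, 20.4 and 19.7 CPM at T8 and 33.5, 29.8 and 29.5 CPM at T12, with an edgeR adjusted p of 2.29e-10 for any difference between times and of 0.146 for the 24 h component. Of the 28 transporters of at least 5 CPM, 9 had their highest and 11 their lowest Grain mean at T12, and 11 had their highest and 8 their lowest Hay mean there. T8 held 6 of the highest and 10 of the lowest means in Grain and 7 and 16 in Hay.

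Other genes of amino acid supply were set beside the transporters, by lists chosen with earlier results of these data known. Their counts stand against 37.7% of all genes tested that were higher in Grain and 43.7% that were lower, or 53.2% and 38.7% of genes of at least 5 CPM. Among 22 tested carriers of other families that move amino acids or peptides, 13 were higher (59.1%) and 8 lower (36.4%) in Grain, with a median log2 difference of 0.18. Of the 16 at 5 CPM or more, 12 were higher and 3 lower. SLC66A1, which exports lysine and arginine from lysosomes, averaged 22.5 ± 2.11 CPM in Grain and 10.6 ± 0.843 CPM in Hay (SD, n = 18 each) and differed by 1.09 ± 0.028 (edgeR adjusted p = 4.36e-38). SLC15A4, a lysosomal carrier of histidine and peptides, averaged 77.4 ± 6.24 CPM in Grain and 52.2 ± 2.82 CPM in Hay and differed by 0.57 ± 0.016 (edgeR adjusted p = 7.33e-36). SLC17A5, the lysosomal exporter of sialic acid and acidic amino acids, differed by 0.45 ± 0.013 (edgeR adjusted p = 8.85e-36), and the mitochondrial ornithine carrier SLC25A15 by -0.96 ± 0.034 (edgeR adjusted p = 1.4e-31).

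Of 22 genes of amino acid synthesis 11 were higher (50%) and 8 lower (36.4%), with a median of 0.095. Of the 20 at 5 CPM or more, 9 were higher and 8 lower, near the shares of all genes at that level. ASNS, which makes asparagine, averaged 261 ± 17.7 CPM in Grain and 162 ± 7.65 CPM in Hay (SD, n = 18 each) and differed by 0.68 ± 0.014 (edgeR adjusted p = 2.22e-43). CBS, which directs homocysteine toward cysteine, differed by 0.70 ± 0.016 (edgeR adjusted p = 2.53e-40) and PSAT1, of serine synthesis, by 0.55 ± 0.015 (edgeR adjusted p = 1.06e-36), while GCLM, of glutathione synthesis, differed by -0.81 ± 0.020 (edgeR adjusted p = 7.76e-37). Of 21 tested genes of amino acid breakdown 6 were higher (28.6%) and 13 lower (61.9%), with a median of -0.29. Of the 16 at 5 CPM or more, 6 were higher and 9 lower with a median of -0.096, where the median of all genes at that level was 0.097. GLUD1, which oxidises glutamate, averaged 85.5 ± 6.43 CPM in Grain and 143 ± 8.54 CPM in Hay and differed by -0.75 ± 0.013 (edgeR adjusted p = 7.63e-46). HAL, which degrades histidine, averaged 5.88 ± 2.72 CPM in Grain and 23.6 ± 3.11 CPM in Hay and differed by -2.14 ± 0.039 (edgeR adjusted p = 5.92e-45). SRR, serine racemase, was higher by 0.90 ± 0.019 (edgeR adjusted p = 1.93e-42).

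The pathway of GCN2 and ATF4 raises transcription of transporters and of synthesis genes when amino acids run short or the endoplasmic reticulum is stressed. The list of 22 genes also holds kinases of other stresses than amino acid shortage. Of these 22 genes 15 were higher (68.2%) and 6 lower (27.3%) in Grain, with a median of 0.40. Over all genes 37.7% were higher and 43.7% lower. Of the 21 at 5 CPM or more, 14 were higher and 6 lower with a median of 0.34, where 53.2% of all genes at that level were higher and 38.7% lower with a median of 0.097. ATF4, the transcription factor at its centre, averaged 338 ± 28.8 CPM in Grain and 191 ± 7.63 CPM in Hay (SD, n = 18 each) and differed by 0.82 ± 0.012 (edgeR adjusted p = 6.1e-49). ATF3, a factor downstream of it, averaged 223 ± 34.6 CPM in Grain and 81.5 ± 16.8 CPM in Hay and differed by 1.47 ± 0.015 (edgeR adjusted p = 9.08e-57). EIF2AK3, the kinase of the endoplasmic reticulum branch, differed by 1.09 ± 0.014 (edgeR adjusted p = 8.83e-53) and EIF2AK2, the kinase that senses double-stranded RNA, by -0.85 ± 0.018 (edgeR adjusted p = 9.61e-43). GCN2 itself, the gene EIF2AK4, averaged 35.2 ± 2.08 CPM in Grain and 43.5 ± 1.99 CPM in Hay. It was lower in Grain by -0.31 ± 0.019 (edgeR adjusted p = 6.47e-21). GCN1, of the same list, did not pass the test with 0.023 ± 0.020 (edgeR adjusted p = 0.283). Of 35 tested genes through which amino acids act on mTORC1, 19 were higher (54.3%) and 11 lower (31.4%), with a median of 0.13. Of the 31 at 5 CPM or more, 17 were higher and 10 lower, near the shares of all genes at that level. SEC13 and SEH1L, shared by nuclear pores and an amino acid sensing complex, differed by 0.92 ± 0.017 (edgeR adjusted p = 4.14e-45) and 0.67 ± 0.013 (edgeR adjusted p = 2.06e-43). RHEB, the activator of the kinase, differed by 0.89 ± 0.019 (edgeR adjusted p = 5.32e-40) and FNIP2, of the folliculin complex, by 1.03 ± 0.027 (edgeR adjusted p = 4.49e-38). Of the genes named from these lists, SLC17A5, GLUD1, SRR, ATF4, ATF3, EIF2AK2, EIF2AK4 and GCN1 overlap another annotated gene.

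**Figure D4:**
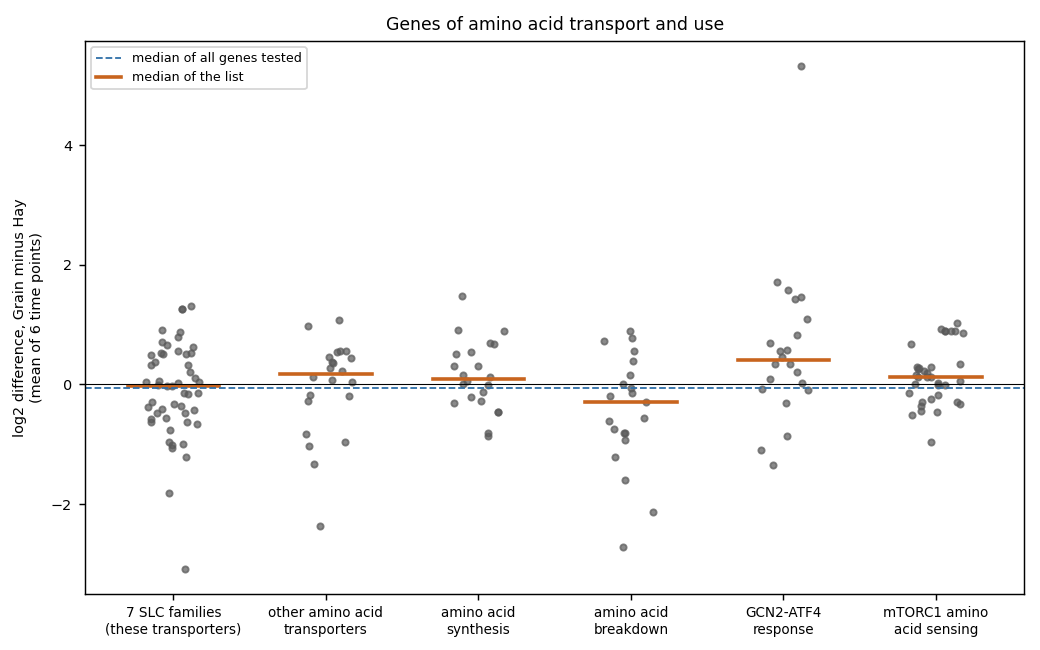
Log2 difference, Grain minus Hay, in the mean of 6 time points, for the 51 tested transporters and 5 lists of other genes of amino acid transport and use, 1 point a gene, spread sideways only for visibility. Orange bars are list medians, from -0.29 for breakdown to 0.40 for the GCN2 and ATF4 list, and the dashed line is the median of all genes tested.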

How the data were processed

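RNA was extracted from the cultured cells, and unstranded TruSeq libraries were sequenced from both ends, per the labels' protocols. The submitters' processing notes name HISAT2 2.2.1, SAMtools 1.20 and StringTie 2.1.5. The tool that produced the count table and its genome build are both not given in the sources used here. Deposited values are whole-number read counts per gene and library, with no normalisation by the authors. All 56 members had an entry in RefSeq's annotation of ARS-UI_Ramb_v3.0, used only for names and overlaps: 12 of the 28 members of at least 5 CPM and 7 of the 15 from 1 to 5 CPM overlap another gene. Sequences and transcript lengths were not analysed here.

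Groups came from the labels. Genes were filtered with filterByExpr (minimum count 10, minimum total 15, 12 groups), leaving 22488, and scaled by TMM. The edgeR quasi-likelihood model (edgeR 4.0.16, limma 3.58.1, R 4.3.3) had a mean for each of the 12 groups and was fitted to all genes. Contrasts gave the mean difference, the difference at each time and the interaction (F test of 5 contrasts), and a second model with a cosine and a sine of 24 h per medium gave the 24 h component. All tests are two-sided, p-values are Benjamini-Hochberg adjusted over all genes tested with a threshold of 0.05, and ± after a log2 difference, an amplitude or a peak time is a standard error. The procedure was tested on simulated counts.

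By rule, members of at least 5 CPM in a medium were described by library and those from 1 to 5 CPM by medium means. Those under 1 CPM were described by name only where called with at least a 2-fold difference. Outside the rule, untested or uncalled members and SLC6A16, called at less than 2-fold, were named to account for them. Of each other list the 4 genes with the smallest p were named, and EIF2AK4 and GCN1 were added outside the rule. A transporter from 1 to 5 CPM and a gene of amino acid breakdown that the rule names are counted but not reported here. The members, the lists and the rule were chosen with earlier results of these data known. Total counts of 52.4 to 68.1 M per library make 1 read worth 0.0137 to 0.0196 CPM. The alternatives were DESeq2 1.42.0, its size factors in edgeR, no low-count filter, a replicate block, each time point fitted alone, a linear trend, any difference between times, leaving out each library and, chosen after seeing the data, leaving out the T12 libraries.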

Additional observations from a re-analysis of the deposited data

Results flagged for a closer look

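The difference between Grain and Hay depended on the time of harvest, by the test of the interaction of medium and time, for 16 transporters. The adjusted p-values of edgeR's quasi-likelihood F test were 4.42e-16 for SLC7A11, 2.89e-08 for SLC6A20, 3.39e-08 for SLC1A4, 1.05e-05 for SLC1A5, 6.09e-05 for SLC38A4, 0.000674 for SLC1A1 and 0.000936 for SLC3A2. They were 0.00229 for SLC38A6, 0.00389 for SLC6A3, 0.00669 for SLC43A2, 0.00844 for SLC36A1, 0.00909 for SLC43A1 and 0.00946 for SLC7A1. They were 0.0143 for SLC7A5, 0.016 for SLC36A4 and 0.0183 for SLC6A12. Over all genes tested 33.2% passed the same test.

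The 24 h component differed between the media, by a direct test of the cosine and sine terms, for 7 transporters. The adjusted p-values of edgeR's quasi-likelihood F test were 0.000213 for SLC1A4, 0.000215 for SLC6A20, 0.00267 for SLC38A4 and 0.0111 for SLC6A12. They were 0.0135 for SLC7A11, 0.0187 for SLC1A1 and 0.0262 for SLC6A3. Over all genes tested 11.3% passed.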

How the results depend on the processing

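No result reversed its direction under any alternative tried. Counts of members called stayed within 1.5 times those reported, apart from the 24 h component in Hay, where 21 members passed when any difference between time points was tested in place of 9 with the cosine; by construction that test also finds courses that are not cosines. Without any 1 library, members higher in the mean numbered 20 to 21, lower 19 to 21, with an interaction 15 to 18, and with a 24 h component 16 to 21 in Grain, 7 to 10 in Hay and 6 to 8 with a different one. Of the 45 members that the rule names for the mean difference, 43 kept their direction and call under every alternative, and SLC38A9 and SLC43A2 did not. DESeq2 gave 20 members higher and 20 lower, and fits without T12 gave 19 higher, 20 lower and 14 with an interaction. The median over all genes was -0.066 with TMM, -0.098 with DESeq2 size factors and -0.14 without the filter. Same-numbered libraries of the media did not deviate together (correlation -0.039 to 0.028 in 18 pairs, with 6 of 18 libraries closest to their own number), so the numbers were not taken as pairs across media. With the replicate block, which gives a number the same shift in both media, 21 members were higher, 19 lower and 16 had an interaction. With it 2 calls of a 24 h component were lost, SLC36A1 in Hay (edgeR adjusted p = 0.0539) and SLC7A1 in Grain (edgeR adjusted p = 0.0523). Neither check can show whether a number marks the same culture over the times of a medium, and such dependence was not tested. Members under 1 CPM rest on few reads, and small differences could be missed for them at this depth.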
